A study of Drosophila melanogaster with 596 samples.

Results

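The nuclear genes for the subunits of respiratory complexes II, III, IV and V, and the gene for the electron carrier cytochrome c, were followed in heads of female Drosophila melanogaster. They come from a list of 34 gene identifiers, and 32 of these had values among the 7422 genes measured. Complex II had values for all 4 listed genes, complex III for all 7, complex IV for 8 of 9, complex V for 12 of 13 and cytochrome c for its 1 gene. The complex IV gene levy (CG17280) and the complex V gene ATPsynG (CG6105) were not analysed here. The flies were untreated F1 females from 596 crosses between recombinant inbred lines (RILs) of the Drosophila Synthetic Population Resource, whose genomes are mosaics of inbred founder lines. In 63.4% of them pA1 females were mated to pB2 males (pA1xpB2), and in the other 36.6% pA2 females to pB1 males (pA2xpB1). Each cross was 1 pool of about 300 heads from females 3 to 5 days old and has 1 set of values in the table, so the cross is the unit of replication. Per the methods 2 pA1xpB2 crosses were prepared again independently, and these repeats were not analysed here.

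The values are normal-quantile residuals, a score with no physical unit. For each transcript the authors removed the effect of subpopulation and of the first 10 principal components of all transcripts, and then set what was left to a normal distribution. A score of 0 is the middle of that gene over the crosses, and the 29 genes with 1 row each run between -3.15 and 3.15. Neither the level of a gene nor a mean difference between the subpopulation crosses is kept, so the results below are about which genes were high or low in the same crosses. For the same reason the labelled tissue could not be checked by the level of its markers. A whole head is a mixture of cells, and fewer cells of a type cannot be told apart from less RNA per cell.

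Complex II is the succinate dehydrogenase of the tricarboxylic acid (TCA) cycle and passes electrons to ubiquinone. Complex III moves them from ubiquinone to cytochrome c, and complex IV moves them from cytochrome c to oxygen. Complexes III and IV pump protons across the inner mitochondrial membrane, and complex V, the ATP synthase, lets the protons back through a rotating ring to make ATP. A few core subunits of complexes III, IV and V are encoded in the mitochondrial genome, and all others, like all of complex II, are encoded in the nucleus. Nervous tissue and muscle are rich in these complexes.

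Most pairs of subunit genes were positively correlated over the crosses, many of them weakly. Of the 496 pairs that the 32 genes form, 421 (84.9%) had a positive Pearson correlation with a Benjamini-Hochberg adjusted p under 0.05 over all gene pairs, and 0 had a negative one. Over all 27539331 gene pairs, 11.8% were called positive and 9.56% negative by the same test, or 21.3% in either direction. The median r was 0.240 over the subunit pairs, which ran from -0.0944 to 0.587, and 0.00327 over all gene pairs. With 596 crosses the smallest absolute r called was 0.105, so many of the called pairs share only a small part of their variance. In the heatmap of pair correlations only 11 of the 496 pairs lie below 0.

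**Figure D1:**
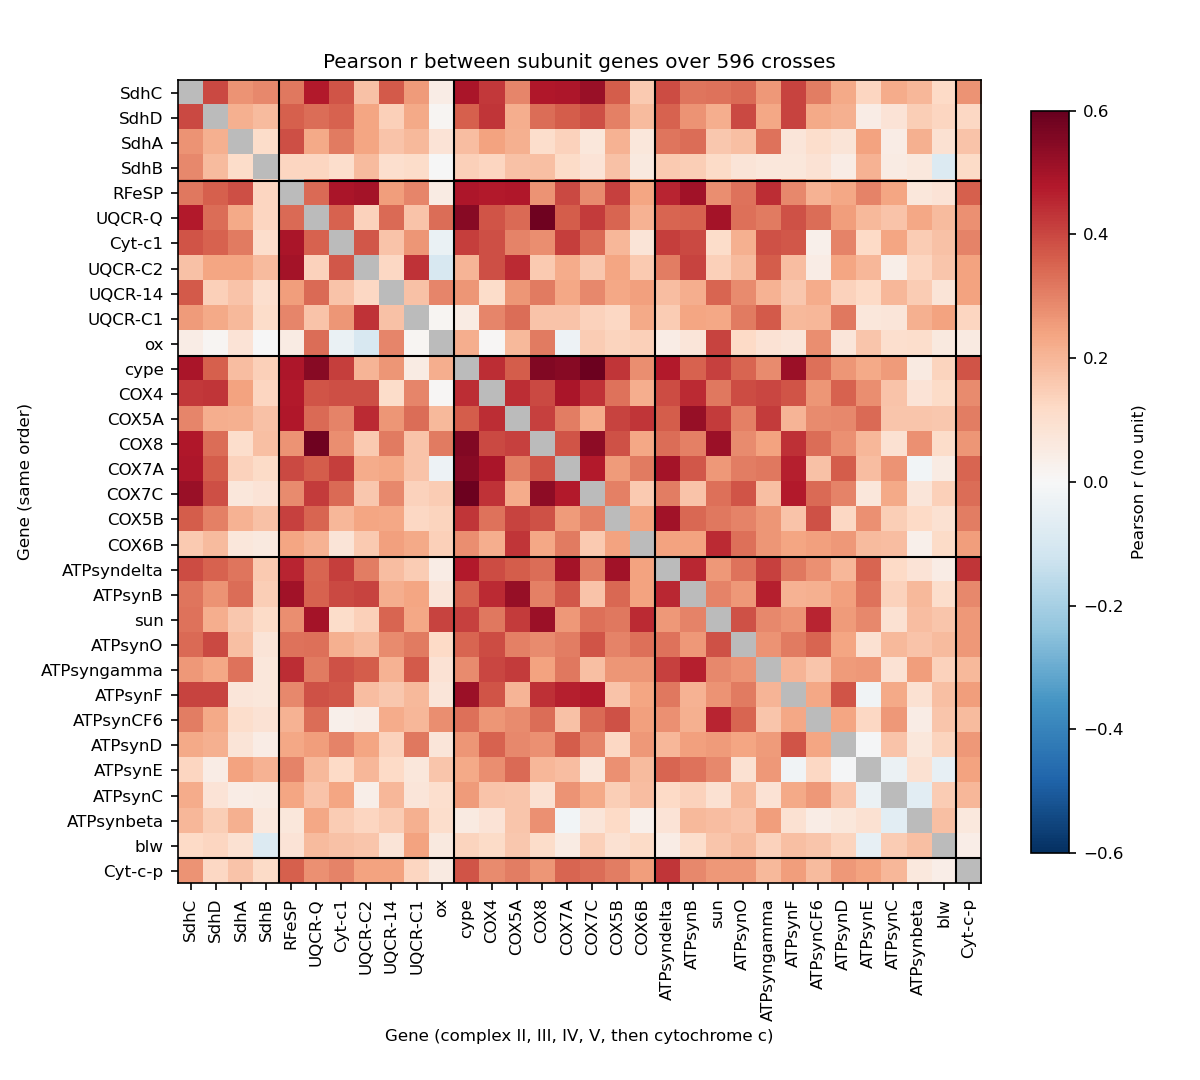
Pearson r between the scores of each pair of the 32 subunit genes over 596 crosses, with genes in the same order on both axes (complex II, III, IV, V, then cytochrome c, each by falling r with the other genes) and black lines between complexes. Color runs from -0.6 to 0.6, and the block of complex IV is positive throughout, from 0.159 to 0.587, while the row of ox is the palest.

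Genes of the same complex were correlated about as strongly as genes of different complexes. Within a complex 85.1% of pairs were called positive, with a median r of 0.255, and between complexes 84.8% were called, with a median of 0.237. Complex IV stood highest, with all 28 of its pairs called and a median of 0.389. Its pairs with cytochrome c had a median of 0.306 (8 of 8 called), those with complex V 0.277 (87 of 96) and those with complex III 0.266 (52 of 56). Within complex III the median was 0.263 (17 of 21 called), within complex II 0.242 (6 of 6) and within complex V 0.201 (52 of 66). The lowest shares of called pairs were between complexes II and V (33 of 48, median 0.190) and within complex V. These medians were not tested against each other. All 8 genes of complex IV had a higher median r with their own complex than with the other subunit genes, which was so for 4 of 7 genes in complex III, 2 of 4 in complex II and 1 of 12 in complex V.

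Each gene was then set against the mean score of the other 31. These values are given as a description, without a test. The median r over the 32 genes was 0.515, with a range of 0.211 to 0.667, and in the plot of these values every gene is above 0 in both sets of crosses. By complex the medians were 0.424 (II), 0.429 (III), 0.594 (IV) and 0.474 (V). For comparison, the 7390 genes outside the list had a median r of 0.00877 with the mean of the 32, with 0.216 at the 95th percentile. Of these genes, 9 exceeded the median subunit gene and 395 exceeded the lowest one.

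**Figure D2:**
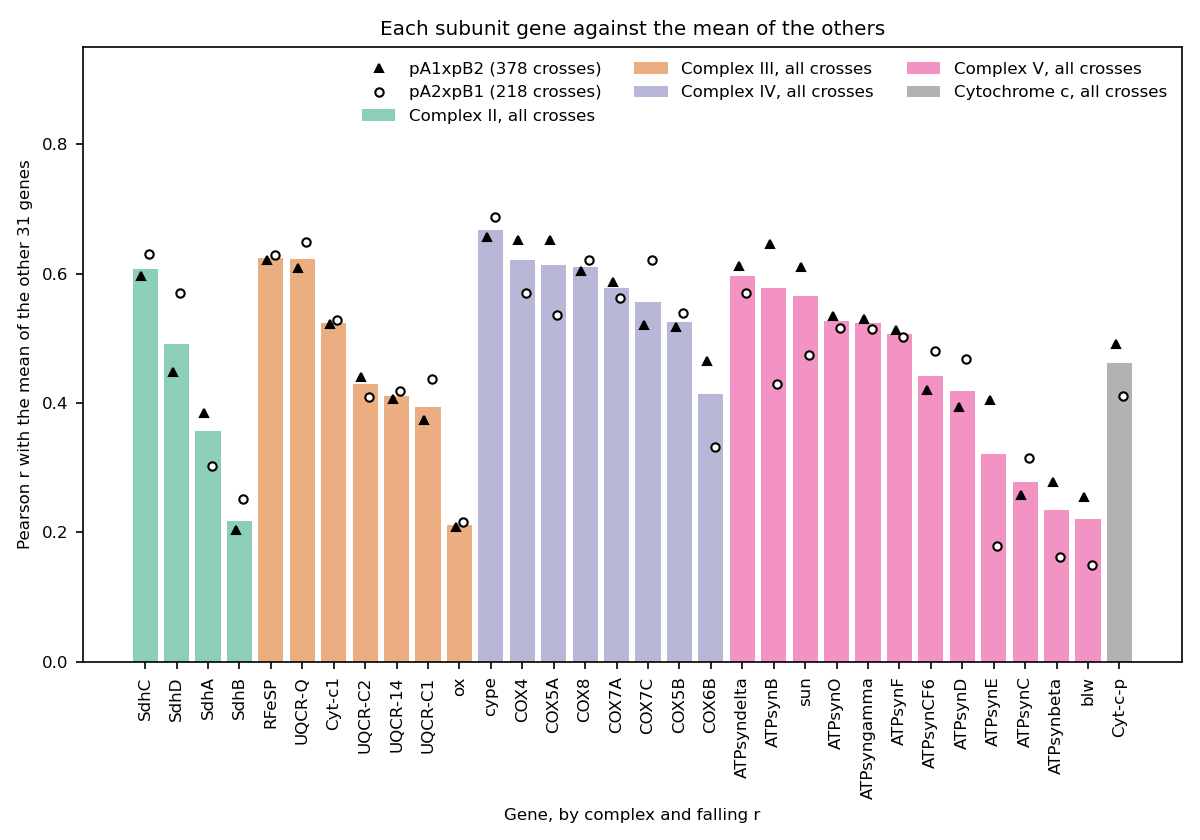
Pearson r of each subunit gene with the mean score of the other 31, with bars for all 596 crosses colored by complex, triangles for the pA1xpB2 crosses and open circles for the pA2xpB1 crosses. Every value is above 0, cype is the highest bar at 0.667 and ox the lowest at 0.211, and the symbols are farthest apart for ATPsynE and ATPsynB.

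In complex II, SdhC (CG6666) and SdhD (CG10219) encode the membrane anchors, SdhA (CG17246) the flavoprotein that oxidizes succinate and SdhB (CG3283) the iron-sulfur subunit. SdhC had an r of 0.608 with the mean of the others and was called with 30 of the 31 genes, most strongly with COX7C of complex IV (0.517). SdhD had an r of 0.491. The anchors also formed the strongest pair within the complex, with an r of 0.395. SdhA, by contrast, reached only 0.356 with the mean of the others and was called with 22 of 31. SdhB was among the 3 lowest of all subunit genes, with an r of 0.217 and 19 called partners. The catalytic pair SdhA and SdhB had the lowest r within complex II, 0.110 (adjusted p = 0.0370).

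In complex III, RFeSP (CG7361) is the Rieske iron-sulfur protein, Cyt-c1 (CG4769) is cytochrome c1, UQCR-C1 (CG3731) and UQCR-C2 (CG4169) are the large core proteins, and UQCR-Q (CG7580), UQCR-14 (CG3560) and ox (oxen, CG8764) are small subunits. RFeSP (0.624) and UQCR-Q (0.622) were behind only cype of complex IV in their r with the other subunit genes. RFeSP was most correlated with ATPsynB (0.505), with UQCR-C2 (0.498) and with Cyt-c1 (0.488), the other redox subunit. UQCR-Q was instead most correlated with COX8 of complex IV, at 0.582, and was called with all 31 genes. Cyt-c1 had an r of 0.523, UQCR-C2 0.429, UQCR-14 0.411 and UQCR-C1 0.394. The small subunit ox was the lowest of all 32 genes, with an r of 0.211 and 12 called partners. Its r with UQCR-Q was 0.336, but those with RFeSP (0.0481), UQCR-C1 (0.0132), Cyt-c1 (-0.0382) and UQCR-C2 (-0.0944) were not called. Its strongest partner among the subunit genes was sun of complex V, at 0.405.

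In complex IV all 8 genes encode nuclear subunits that surround the mitochondrially encoded core. The gene cype (cyclope, CG14028) had the highest r of all with the other subunit genes, 0.667, followed in the complex by COX4 (CG10664, 0.621), COX5A (CG14724, 0.613), COX8 (CG7181, 0.609), COX7A (CG9603, 0.578), COX7C (CG2249, 0.555), COX5B (CG11015, 0.525) and COX6B (CG14235, 0.414). Of the 5 strongest subunit pairs, 3 lay within complex IV and joined cype to another small subunit. The pair cype and COX7C had an r of 0.587 (Spearman rho 0.567), and both were on the same side of 0 in 423 of 596 crosses (70.97%). For cype and COX8 r was 0.554 (rho 0.518), and for cype and COX7A 0.546 (rho 0.532). The remaining pairs of the 5 joined UQCR-Q of complex III to COX8 (0.582, rho 0.564) and to cype (0.546, rho 0.508). Each of these 5 values gave p = 1e-05 in a two-sided permutation test for r and for rho. That is the smallest that 100000 permutations can give. The pairs were picked for their r, and these p-values are not adjusted for that choice. When the 2 crosses in which the first-named gene of a pair lay farthest from its median were left out, r stayed between 0.531 and 0.581 over the 5 pairs. In pA1xpB2 and pA2xpB1 crosses, r was 0.524 and 0.691 for cype and COX7C, 0.601 and 0.546 for UQCR-Q and COX8, 0.533 and 0.597 for cype and COX8, 0.559 and 0.521 for cype and COX7A, and 0.535 and 0.563 for UQCR-Q and cype. The highest r of COX5A was with ATPsynB of complex V (0.522).

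In complex V, blw (bellwether, CG3612) encodes the alpha subunit and ATPsynbeta (CG11154) the catalytic beta subunit of the soluble head, while ATPsyngamma (CG7610), ATPsyndelta (CG2968) and sun (stunted, epsilon, CG9032) form the central stalk. ATPsynO (CG4307), ATPsynB (CG8189), ATPsynD (CG6030) and ATPsynCF6 (CG4412) belong to the peripheral stalk, ATPsynC (CG1746) forms the ring in the membrane, and ATPsynE (CG3321) and ATPsynF (CG4692) are small membrane subunits. The highest genes of the complex were 5 of its 7 stalk genes, with an r with the other subunit genes of 0.597 for ATPsyndelta, 0.577 for ATPsynB, 0.565 for sun, 0.526 for ATPsynO and 0.524 for ATPsyngamma. ATPsynF followed at 0.507, ATPsynCF6 at 0.441 and ATPsynD at 0.419. The strongest pairs within the complex were ATPsyngamma and ATPsynB (0.466), sun and ATPsynCF6 (0.457) and ATPsyndelta and ATPsynB (0.451). At the other end were the genes of the catalytic head and the ring. These were blw (0.220, 21 called partners), ATPsynbeta (0.234, 16 partners) and ATPsynC (0.277, 20 partners), with ATPsynE at 0.322 and 22 partners. The alpha and beta subunits form the catalytic hexamer in equal number, and neither was among the other's strongest partners. The highest r of blw was 0.243, with UQCR-C1, and that of ATPsynbeta was 0.273, with COX8.

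Cyt-c-p (CG17903), the cytochrome c gene used outside the testis, had an r of 0.461 with the mean of the other genes and was called with 28 of 31. Its strongest partner was ATPsyndelta (0.431). With the mean scores of the complexes, its r was 0.257 for complex II, 0.388 for complex III, 0.457 for complex IV and 0.432 for complex V.

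The 5 lowest of the 496 pairs were all below 0, and none was called. UQCR-C2 and ox had an r of -0.0944 (rho -0.0827, permutation p = 0.0209 for r, adjusted p over all pairs = 0.0821). SdhB and blw had -0.0799 (rho -0.0721, permutation p = 0.0509), ATPsynbeta and ATPsynC -0.0635 (rho -0.0536, p = 0.122), blw and ATPsynE -0.0489 (rho -0.0121, p = 0.234), and Cyt-c1 and ox -0.0382 (rho -0.0305, p = 0.350). With 2 crosses left out by the same rule these 5 values ran from -0.0812 to -0.0367. In pA1xpB2 and pA2xpB1 crosses r was -0.106 and -0.0721 for UQCR-C2 and ox, -0.0640 and -0.120 for SdhB and blw, -0.00857 and -0.154 for ATPsynbeta and ATPsynC, 0.00856 and -0.158 for blw and ATPsynE, and -0.0663 and 0.0103 for Cyt-c1 and ox. All 5 pairs hold ox, SdhB, blw or ATPsynbeta, the 4 genes with the lowest r with the mean of the others.

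Averaged over their genes, the 4 complexes moved closely together from cross to cross. The mean score of complex IV had an r of 0.785 with that of complex V and 0.684 with that of complex III, and complexes III and V reached 0.735. Complex II was less close to the others, at 0.559 with complex III, 0.570 with complex IV and 0.556 with complex V. A mean over 4 genes carries more noise of single genes than one over 12, so these values also depend on the number of genes. In pA1xpB2 crosses the 6 values ran from 0.534 (II and IV) to 0.790 (IV and V), and in pA2xpB1 crosses from 0.575 (II and III) to 0.777 (IV and V).

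**Figure D3:**
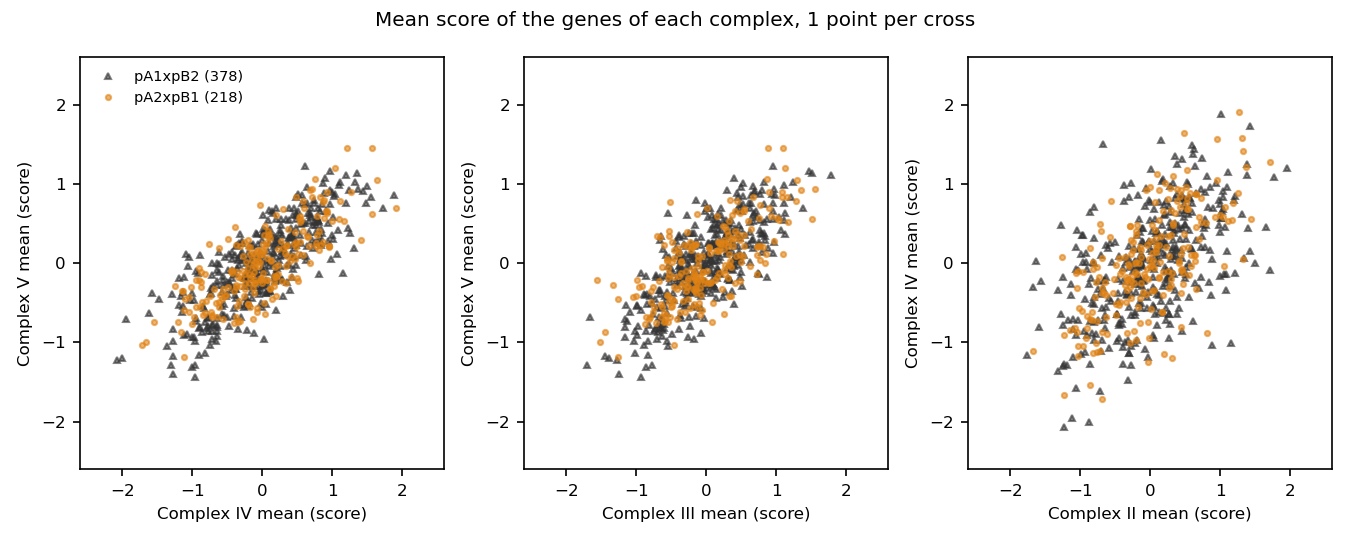
Mean score of the genes of a complex in each of 596 crosses, for complexes IV and V (left, r 0.785), III and V (middle, r 0.735) and II and IV (right, r 0.570), with both axes in score units. Triangles are the pA1xpB2 crosses and circles the pA2xpB1 crosses, which lie along the same diagonal in each panel.

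The mean over all 32 genes ran from -1.45 to 1.41 over the crosses, with a median of -0.000978 and an SD of 0.515. At least 24 of the 32 genes were above 0 in 17.4% of crosses and below 0 in 17.3%, and at least 28 were above 0 in 30 crosses and below 0 in 31. By cross type, at least 24 were above 0 in 18.5% of pA1xpB2 and 15.6% of pA2xpB1 crosses. The lowest mean was in the pA1xpB2 cross 11217 by 22217, in which 29 of 32 genes were below 0. There SdhC, UQCR-Q and COX8 each scored -2.81 and sun -2.64, while SdhA scored 0.663. The complex IV mean in this cross was -2.07, the lowest of its 4 complex means. The next lowest was 11020 by 22020, also pA1xpB2, at -1.42, with COX6B at -2.48 and ATPsynO at -2.42, but ATPsynE at 1.49. At the high end, 11041 by 22041 (pA1xpB2) had a mean of 1.41 and 12090 by 21090 (pA2xpB1) a mean of 1.38, each with 31 of 32 genes above 0. The highest gene in 11041 by 22041 was Cyt-c1, at 3.15, and the only gene below 0 was ATPsynD, at -0.431. In 12090 by 21090 the highest were cype and Cyt-c-p, both at 2.81, and the only gene below 0 was SdhA, at -0.221. SdhA went against the other subunit genes in 3 of these 4 crosses, more often than any other of the 32.

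The first principal component of the 32 genes held 28.7% of their variance, and all loadings had the same sign. The second held 6.92%, little more than the third (5.96%), and separated subunits that stand in the same complex. On one side were UQCR-C2 (loading 0.372), SdhA (0.241), ATPsyngamma, ATPsynB, RFeSP, Cyt-c1 and UQCR-C1. On the other were ox (-0.310), ATPsynCF6 (-0.252), COX7C, COX8, sun and UQCR-Q. The plot of loadings shows that the core and redox subunits of complex III lie above 0 and its small subunits below it. The component was also computed within each set of crosses. The loadings correlated with those over all crosses at 0.899 in pA1xpB2 crosses, with the same sign for 28 of 32 genes, and at 0.750 in pA2xpB1 crosses, with the same sign for 26. For ox the loading was -0.416 in pA1xpB2 crosses and -0.00687 in pA2xpB1 crosses, so its place at the low end rests on the pA1xpB2 crosses. UQCR-14 had -0.283 in pA1xpB2 and 0.149 in pA2xpB1 crosses, and sun -0.282 and 0.0294. In pA2xpB1 crosses the small subunits of complex III were thus not all on the side opposite to its core and redox subunits. Each set of crosses is part of the whole, so these are not independent checks. The second component had an r of 0.284 with the mean of TCA cycle and pyruvate dehydrogenase genes and 0.0686 with the mean of complex I. The former value was not particular to that list. With the mean of glycolytic enzymes r was 0.259, with photoreceptor markers 0.186 and with regulators of mitochondrial genes -0.196.

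**Figure D4:**
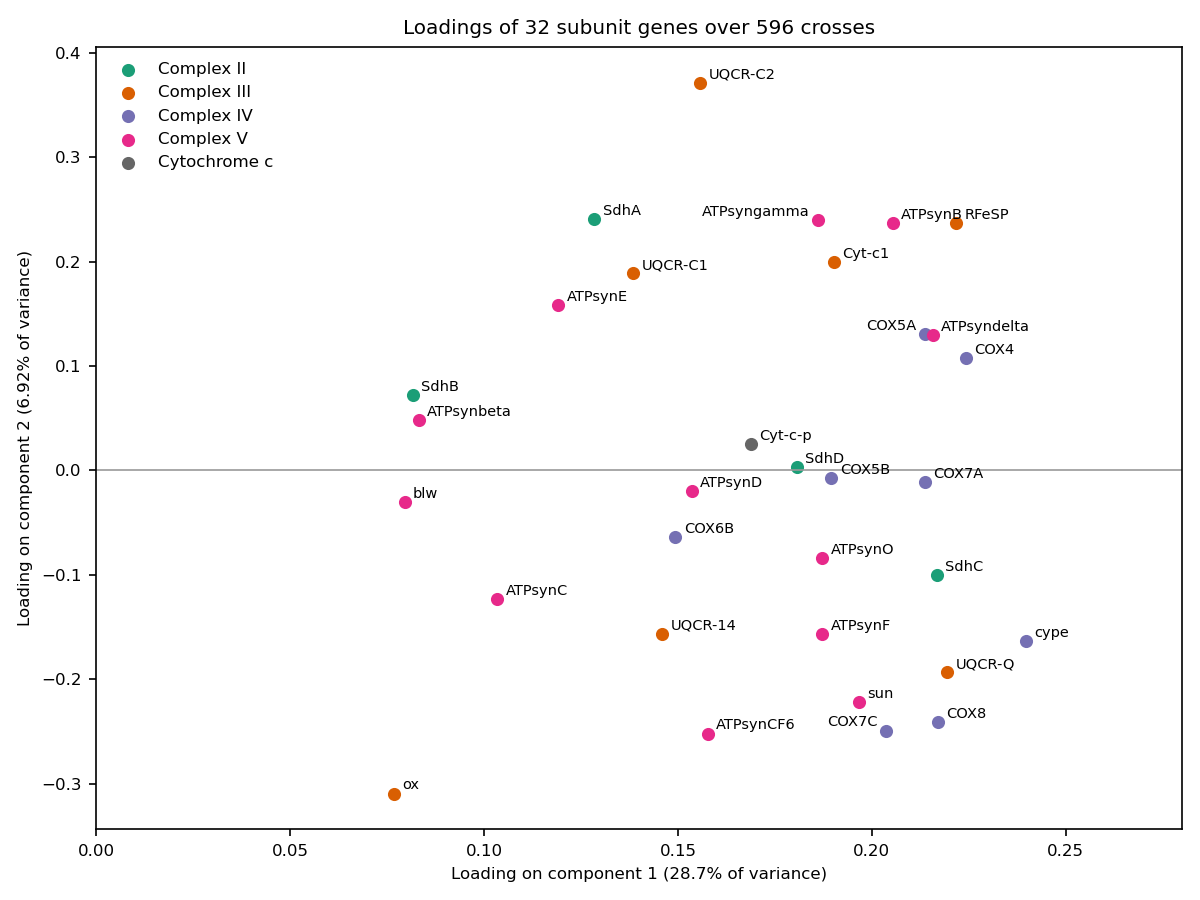
Loadings of the 32 subunit genes on the first (x axis, 28.7% of variance) and second (y axis, 6.92%) principal component over 596 crosses, colored by complex. All genes load above 0 on the first component, with cype farthest right and ox farthest left, and UQCR-C2 (0.372) and ox (-0.310) mark the ends of the second.

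Correlations among the subunit genes were compared between the sets of crosses by the difference of Fisher z values over all gene pairs. The median r of the 496 pairs was 0.255 in pA1xpB2 crosses and 0.222 in pA2xpB1 crosses, and r was higher in pA1xpB2 crosses for 58.9% of the pairs. After adjustment 1 pair differed, where 0.164% of all gene pairs did. This pair was COX4 and ATPsynB, with an r of 0.553 in pA1xpB2 crosses and 0.242 in pA2xpB1 crosses (difference 0.311, adjusted p = 0.0205). It was not called with Spearman correlation or after a further 10 principal components were removed. At an unadjusted p under 0.05 there were 75 pairs of 496 (15.1%), against 10.4% of all gene pairs. The next smallest p-values, with adjusted p from 0.0658 to 0.107, belonged to COX7A and ATPsynB (r 0.459 and 0.172 in pA1xpB2 and pA2xpB1 crosses), UQCR-C2 and COX4 (0.488 and 0.211), cype and ATPsynB (0.446 and 0.164) and SdhD and ATPsynCF6 (0.119 and 0.392). ATPsynB is in 3 of these 5 pairs, and the last is the only one with the higher r in pA2xpB1 crosses. In the same order, r over all crosses was 0.447 (rho 0.445), 0.372 (rho 0.371), 0.387 (rho 0.387), 0.355 (rho 0.355) and 0.226 (rho 0.236). The permutation p of each was 1e-05, a test of r over all crosses and not of its difference between the sets. With 2 crosses left out in the same way, r lay between 0.233 and 0.438.

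The spread of 2 subunit genes differed between the sets of crosses by the Brown-Forsythe test with Benjamini-Hochberg adjustment over all genes. By the same test 19.3% of all genes differed, so differences of spread were not frequent among the 32. SdhB ran from -3.15 through a median of 0.0269 to 3.15 in pA1xpB2 crosses and from -2.11 through -0.0352 to 2.01 in pA2xpB1 crosses. Its SD was 1.08 in pA1xpB2 and 0.844 in pA2xpB1 crosses, a ratio of 1.28 (adjusted p = 0.0128). Scores beyond 2 in either direction were found in 6.61% of the pA1xpB2 crosses and 1.38% of the pA2xpB1 crosses. ATPsynB ran from -3.15 through 0.00414 to 3.15 in pA1xpB2 crosses and from -2.64 through -0.00829 to 2.15 in pA2xpB1 crosses. Its SD was 1.08 in pA1xpB2 and 0.863 in pA2xpB1 crosses, a ratio of 1.25 (adjusted p = 0.0059). For both genes the ranges overlapped widely and the wider spread was in pA1xpB2 crosses. The median ratio was 1.02 over the 32 genes and 1.04 over all genes.

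COX6B, ATPsynbeta and ATPsynO had more than 1 isoform row, and these rows were averaged for the values above. COX6B had 4 rows, named PA to PD, of which PB, PC and PD were identical in all 596 crosses. PA had an r of 0.654 with PB, and with the mean of the other subunit genes PA reached 0.183 and PB 0.454. For COX6B the choice of row therefore moved its place among the subunit genes. In ATPsynbeta PA and PC were nearly the same (0.956), PA and PB had an r of 0.651 and PB and PC 0.579. All 3 rows of this catalytic subunit stayed low with the other subunit genes, at 0.199 for PA, 0.254 for PB and 0.183 for PC. The rows PA and PB of ATPsynO had an r of 0.683, and reached 0.541 and 0.424 with the other genes.

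Complex I, which feeds electrons from NADH into the same chain, was the closest to the subunit genes of the lists with more than 1 gene measured. Of 40 complex I genes listed 29 had values, and their median r with the mean of the 32 was 0.430. Of the 928 pairs between a complex I gene and a subunit gene, 704 (75.9%) were called positive and 3 negative, and the mean of complex I had an r of 0.865 with the mean of the 32. ND-B22 was highest at 0.650 and ND-51L1 lowest at -0.0205. The TCA cycle and pyruvate dehydrogenase list came next, with a median of 0.328 over 13 genes and 74.5% of pairs called positive, from Fum1, the fumarase (0.428), to Scsalpha1, a succinyl-CoA synthetase subunit (0.117). These shares compare with 14.4% positive and 11.01% negative for pairs between any other gene and a subunit gene. In the plot of lists 24 of the 29 complex I genes lie to the right of the band that spans the 5th to 95th percentile of all other genes.

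**Figure D5:**
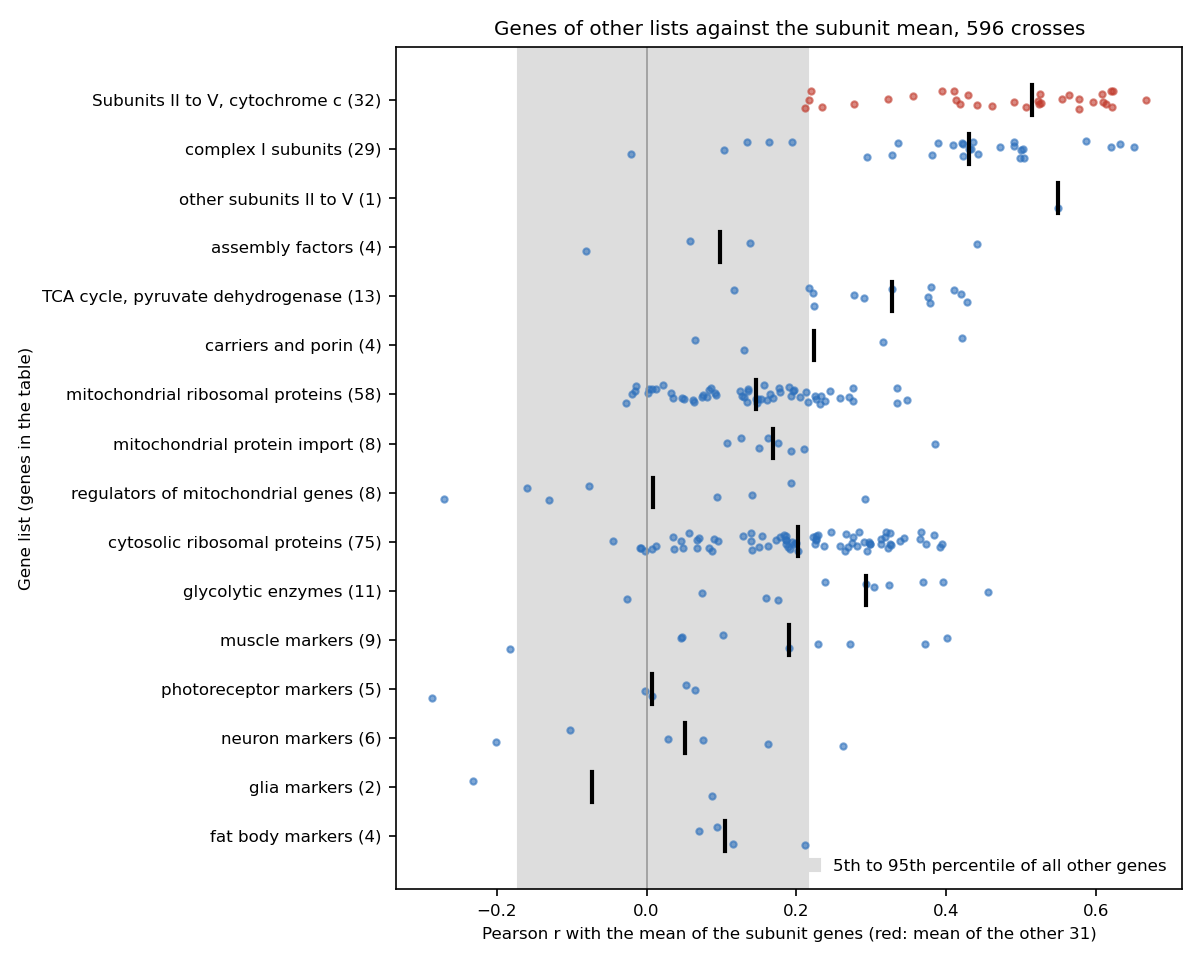
Pearson r of each gene with the mean score of the 32 subunit genes over 596 crosses, by gene list down the page with the number of genes measured in parentheses. Red points are the subunit genes themselves, each against the mean of the other 31, black bars are list medians, and the grey band spans the 5th to 95th percentile of the 7390 other genes (-0.172 to 0.216). The median is 0.515 for the subunit genes, 0.430 for complex I and 0.00695 for photoreceptor markers.

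Other mitochondrial lists with more than 1 gene measured were lower. The carriers of ATP, ADP and phosphate had a median of 0.223 over 4 genes, with sesB, the main ADP/ATP carrier, at 0.421 and its neighbor and paralog Ant2 at 0.0642. Protein import genes had 0.169 (8 genes, from blp at 0.107 to Tim8 at 0.385), mitochondrial ribosomal proteins 0.147 (58 genes, from mRpS23 at -0.0270 to mRpL9 at 0.348) and assembly factors 0.0982 (4 genes). Among the assembly factors Cox17, a copper chaperone for complex IV, reached 0.441, and Bcs1, which acts on complex III, had -0.0802. Regulators of mitochondrial genes had a median of 0.00837 over 8 genes, with as many pairs called negative as positive (23.8% each). TFAM, which packages and transcribes mitochondrial DNA, was highest at 0.292, and ewg, the fly relative of nuclear respiratory factor 1, was lowest at -0.270. Of 22 listed paralogs and further subunits, UQCR-6.4 of complex III was the only one with values, at 0.550.

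Outside mitochondria, the glycolytic enzymes had a median of 0.293 over 11 genes, from Hex-A (-0.0264), a hexokinase, to Pglym78 (0.456), the phosphoglycerate mutase. Of their pairs with subunit genes 57.7% were called positive. Cytosolic ribosomal proteins had 0.202 over 75 genes, from RpL5 at -0.0450 to RpL37-1 at 0.394, with 1224 of 2400 pairs called positive. After a further 10 principal components were removed, the median of these ribosomal proteins was 0.00778, from RpL5 (-0.232) to RpL34b (0.155). The median of the glycolytic enzymes was then 0.0794 and that of complex I 0.209. The same step lowered the median r of a subunit gene with the mean of the others to 0.286.

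Markers of the cell types of a head moved with the subunit genes to different degrees, and their part in the correlations was not tested beyond the values given here. All 9 muscle markers had values and a median r of 0.190, from Act88F, the flight muscle actin (-0.183), to Mhc, the muscle myosin heavy chain (0.401), and the median was 0.0963 with the first isoform row of each gene and 0.0548 after a further 10 principal components were removed. The mean of the muscle markers had an r of 0.294 with the mean of the 32 (0.359 in pA1xpB2 and 0.175 in pA2xpB1 crosses). The 5 photoreceptor markers with values had a median of 0.00695, from ninaC (-0.286) to ninaE, the major rhodopsin (0.0649). The 6 neuron markers had 0.0518, from elav (-0.201) to Syt1 (0.262), the 2 glia markers -0.0724 (nrv2 at -0.232 and Gs2 at 0.0873) and the 4 fat body markers 0.104, from Yp1 (0.0696) to Yp3 (0.212). The means of the 5 marker lists were also taken out, a choice made after seeing the data. In this setting 402 of the 496 subunit pairs were called positive, where 10.8% of all gene pairs were. Called negative were 1 subunit pair and 2393680 of all 27539331 gene pairs. The median r of a subunit gene with the mean of the others was then 0.503.

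Among single genes outside the list, COX7B had the highest r with the mean of the 32, at 0.659 (rho 0.649), and was called positive with 32 of 32. By its name it is a further complex IV subunit, and its highest single r was with cype, 0.563. ND-B22, ND-19, ND-B14.5B, ND-24, NdufV3 and ND-B17.2, all named for complex I, followed between 0.505 and 0.650, ND-B22 having an r of 0.602 with RFeSP. Neb-cGP reached 0.617 and was closest to sun (0.575), and CG9399, which the gene table also names dMPC2 after the mitochondrial pyruvate carrier, reached 0.543. With UQCR-6.4 (0.550) these are the 10 genes with the largest absolute r. By complex, the closest outside genes were CG9399, ND-19 and ND-B17 for complex II (0.465, 0.451 and 0.437), COX7B, ND-B22 and Neb-cGP for complex III (0.583, 0.579 and 0.570), ND-B14.5B, COX7B and ND-B22 for complex IV (0.648, 0.614 and 0.598) and ND-19, COX7B and ND-B22 for complex V (0.611, 0.599 and 0.589). Complex II was the only one for which COX7B was not among these 3.

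The gene most correlated with each subunit gene, out of all 7421 others, was another of the 32 for 17 genes and a complex I gene for 9. The 5 genes with the lowest r with the other subunit genes were ox, SdhB, blw, ATPsynbeta and ATPsynC. None of them was closest to another of the 32. For ox the closest was ND-MLRQ of complex I (0.481), for ATPsynE ND-ASHI (0.474), for UQCR-C1 ND-39 (0.509) and for blw ND-19 (0.262). For ATPsynC it was COX7B (0.336), by its name a complex IV subunit, though not among the 32. COX7B was also the closest gene of UQCR-14 (0.509) and ATPsynCF6 (0.466). ATPsynbeta was closest to the carrier sesB (0.365), which exports the ATP that the synthase makes. SdhB was closest to CG32544 (0.428), a gene with no name in the table used. RFeSP and ATPsynB, though highly correlated with other subunit genes, were both closest to ND-B22 (0.602 and 0.588).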

How the data were processed

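RNA from pools of female heads was hybridised to NimbleGen arrays, and per the labels the oligo package and RMA were used. The authors kept probes with an exact match to coding sequences. They dropped all probes with several sequence variants, and probes with a single variant where it affected the measured value. Transcripts with few probes were dropped too, and the transcripts of a gene were averaged where they agreed. Transcripts below an expression cutoff were excluded before mapping. The authors deposited a score per transcript and cross, the normal-quantile residual described above, for 11064 transcripts. These scores were not corrected further, and isoform rows were averaged per gene. Symbols came from a RefSeq gene table, which matched 7349 of 7422 genes.

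Pearson correlations were computed for all gene pairs, with p from the t distribution (594 degrees of freedom) and Benjamini-Hochberg adjustment at 0.05. The p-values treat crosses as independent, although crosses share founder haplotypes. Named pairs were also tested with 100000 permutations over all crosses, without adjustment for how the pairs were picked. Differences between the pA1xpB2 and pA2xpB1 crosses were tested on Fisher z values over all pairs, and spread with the Brown-Forsythe test over all genes. The steps were tested on simulated data. The depth of an array is not expressed in these values, and the number of arrays limits the precision. The labels do not give the slide of a cross, so slides were not tested as batches.

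The subunit genes and the comparison lists were chosen with earlier results of these data known. The genes named are all 32 with values, the 5 highest and 5 lowest pairs, the 10 outside genes with the largest absolute r, the 3 closest to each complex, the ends of each list, genes called for spread and the 5 pairs with the smallest p for a difference. Other pairs, the 4 extreme crosses and the closest gene of single subunits were named after their values were seen. Of the entries in the lists, 13 had no match in the gene table. A planned search for promoter motifs was not run. Software was scipy 1.17.1, numpy 2.4.6 and pandas 2.3.3 under Python 3.11.15, with figures from matplotlib 3.10.9.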

Additional observations from a re-analysis of the deposited data

Results flagged for a closer look

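The r of 1 pair and the spread of 2 genes differed between the pA1xpB2 and the pA2xpB1 crosses by a test of the difference itself. The correlation of COX4 with ATPsynB was 0.311 higher in pA1xpB2 crosses. It was the only one of the 496 pairs called, where 0.164% of all gene pairs were, and it was not called with Spearman correlation or after a further 10 principal components were removed. The SD of SdhB was 1.28 times as large in pA1xpB2 as in pA2xpB1 crosses, and that of ATPsynB 1.25 times. These are 2 of 32 genes, where 19.3% of all genes differed in spread. Against these shares of all gene pairs and of all genes, neither count stands out, and no pattern is read from them. ATPsynB is in the called pair and is also 1 of the 2 genes called for spread. Its r with the mean of the other subunit genes was 0.645 in pA1xpB2 and 0.429 in pA2xpB1 crosses. Whether the wider spread of ATPsynB bears on its correlations was not tested.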

How the results depend on the processing

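The correlations were weakest after a further 10 principal components of the table were removed. Then 37.3% of subunit pairs were called positive, 99.5% of which were also called before, where 3.92% of all gene pairs were called positive. Called negative were 5 of the 496 subunit pairs, where 886177 of all 27539331 gene pairs were. The median r with the mean of the others was 0.286, the first component held 13.3% and the complex means had a median r of 0.381. Medians with the subunit mean fell to 0.209 for complex I, 0.324 for UQCR-6.4, 0.175 for the TCA list, 0.0683 for import, 0.00778 for cytosolic ribosomal proteins, 0.0794 for glycolysis and 0.0153 for fat body markers. In this setting 0 subunit pairs differed between the sets of crosses, where 7758 of all gene pairs did. The spread of 1 of the 32 genes differed, where that of 1294 of 7422 genes did. With Spearman correlation 84.9% of subunit pairs were positive, where 10.8% of all gene pairs were. By the same measure 0 subunit pairs differed between the sets (68 at an unadjusted p under 0.05), where 28269 of all 27539331 gene pairs were called. In pA2xpB1 crosses alone UQCR-6.4 had an r of 0.427. The first component held 27.2% with marker means and 25.6% with the mean of cytosolic ribosomal proteins taken out, both chosen after seeing the data. The share of positive pairs was 78.02% in pA1xpB2 and 57.1% in pA2xpB1 crosses alone. Over all gene pairs the share called positive was 8.26% in pA1xpB2 and 3.48% in pA2xpB1 crosses. The pA2xpB1 crosses are fewer, so a pair needs a larger r to be called there, and these shares do not compare the size of r. The median r of the subunit pairs was 0.255 in pA1xpB2 and 0.222 in pA2xpB1 crosses. Under the other settings tried 78.8% to 84.9% of subunit pairs were positive, where 7.05% to 11.7% of all gene pairs were. UQCR-C2 and ox were called negative with the cross median (-0.118), the marker means (-0.140) or ribosomal proteins (-0.122) taken out, and ATPsynbeta and ATPsynC (-0.141) and SdhB and blw (-0.121) after the further components. COX6B had an r of 0.186 with the others from its first isoform row. The causes were not tested. Counted once for each main result and setting, 91 values were classed as the same and 17 as moved. The class of the same is broad and holds values that changed in sign or size. The photoreceptor median was 0.00695 over all crosses and -0.0935 in pA2xpB1 crosses alone. The muscle median was 0.190 before and 0.0548 after the further components were removed. No paired analysis was possible because each cross has 1 value and the replicate numbers only name crosses.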

Other observations

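Some genes ran opposite to the subunit genes. The lowest r with the mean of the 32 was that of Roc1b, a RING component of cullin ubiquitin ligases, at -0.426 (-0.401 in pA1xpB2 and -0.474 in pA2xpB1 crosses), and it was called negative with 27 of the 32. Its paralog Roc1a stood at the other end, at 0.504, and was called positive with 27. CG17597 had -0.392, cpx, the complexin that acts in synaptic vesicle release, -0.385, RhoGAP5A -0.373 and Uck -0.342. After a further 10 principal components were removed, these 5 lay between -0.0947 and 0.0177, while Roc1a was at 0.0871. These genes were picked for their values.

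The median over all genes in a cross, which ran from -0.286 to 0.632, had an r of 0.219 with the mean of the subunit genes (0.202 in pA1xpB2 and 0.259 in pA2xpB1 crosses). Taking it out left 416 subunit pairs (83.9%) called positive, where 10% of all gene pairs were. Crosses of neighboring line number were slightly alike, with a correlation of 0.0962 between a cross and the next for the mean of the subunit genes, against a median of 0.0368 over all genes. Centering within runs of 12 consecutive lines was a choice made after seeing the data. It left 418 subunit pairs (84.3%) called positive, where 11.3% of all gene pairs were.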
